A study of Mus musculus with 6 samples.

Results

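The dual specificity phosphatases, the Sprouty proteins and the Spred proteins are families of signal inhibitors, and their genes were followed here in 4T1 cells, a mouse mammary carcinoma line, that carried guides against the fibroblast growth factor receptor FGFR2. The members are all rows of the count table whose symbol begins with Dusp and a digit, or is Spry1 to Spry4 or Spred1 to Spred3. They number 31 of 31017 rows, 24 of them phosphatases, 4 Sprouty genes and 3 Spred genes. The rule uses names and no measured values. Of the 31 members, 26 had enough counts to be tested, each with at least 11 counts in every library. Dusp15, Dusp21, Dusp26 and Spry3 had 0 counts in every library, and Dusp23 had 1 count in each KO library against 3, 4 and 7 in control replicates 1 to 3.

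The data are poly(A) RNA libraries from 3 replicates labelled FGFR2 KO, made by nucleofection of Cas9 with guides for the receptor gene, and 3 control replicates, which received Cas9 with control guides. Both groups were grown inside collagen I gels and freed by collagenase before RNA was extracted. The labels do not say whether the KO cells were a pool or a clone, which exon was cut, which of the collagen concentrations a library had, or whether replicates were separate cultures. The p-values therefore speak only for the variation among these 6 libraries, part of which may be technical.

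Mitogen-activated protein (MAP) kinases are switched on by phosphorylation of a threonine and a tyrosine, and the MAP kinase phosphatases (MKPs) of the Dusp family remove both phosphates. One set acts on ERK, the kinase downstream of receptor tyrosine kinases and RAS. Another acts mainly on the stress kinases JNK and p38, and the small atypical members lack the kinase-binding domain and have varied substrates. Sprouty and Spred proteins inhibit the pathway higher up, between the receptor and the kinase cascade, and the Spreds do so by bringing neurofibromin to RAS at the membrane. Many of these genes are themselves induced by ERK, which makes them feedback inhibitors whose transcripts are often read as a gauge of ERK output.

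Libraries held 18635037 to 20171309 counts in the KO group and 15531790 to 20447719 in the control group. Fgfr2 itself was at 101, 81.1 and 95.2 CPM (counts scaled to library size) in KO replicates 1 to 3 and at 96.8, 95.9 and 106 CPM in control replicates 1 to 3 (log2 fold change -0.11, SE 0.056, edgeR adjusted p = 0.113), and a total over the gene cannot test a label that rests on a cut at an unstated place. All 7 epithelial markers were expressed, and 5 of them fell and 1 rose, beside 27.5% lower and 27.1% higher among all tested genes. The summed level of the 7 markers was 3336 to 3423 CPM in KO and 4101 to 4214 CPM in control libraries. The keratin gene Krt18 was at 918 ± 0.793 CPM in KO and 1401 ± 29.3 CPM in control libraries, and the gene of the adhesion protein E-cadherin, Cdh1, which rose, at 390.0 ± 10.9 CPM in KO and 327 ± 7.83 CPM in control libraries (SD, n = 3 each). Of 8 leukocyte markers 6 averaged under 1 CPM, Adgre1 and Cd3e were at 0, and the list summed to 6.20 to 8.69 CPM in KO against 14.3 to 16.7 CPM in control libraries. Cd68, which fell, made up most of that sum, with 5.08, 5.82 and 7.01 CPM in KO against 13.2, 12.5 and 15.4 CPM in control libraries. Of 7 fibroblast markers 6 averaged under 1 CPM, Col3a1 and Lum were at 0, and the sum, most of it Pdgfra, was 39.7 to 45.4 CPM in KO against 36.3 to 38.2 CPM in control libraries. The collagen gene Col1a1, with 33, 18 and 21 counts in KO against 10, 9 and 5 counts in control libraries, rose (edgeR adjusted p = 0.0034). Dcn, with 11, 10 and 12 counts in KO against 2, 0 and 0 counts in control libraries, and Pdgfrb, with 8, 6 and 12 counts in KO against 0, 0 and 2 counts in control libraries, were too low to be tested but did not overlap between the groups. All 4 endothelial markers averaged under 1 CPM, Kdr and Tek were at 0, and the list summed to 0.153 to 0.588 CPM in KO against 0.0492 to 0.258 CPM in control libraries. The part of other cell types in the results was not tested. In bulk RNA, fewer cells that express a gene and less transcript per cell cannot be told apart.

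Each member was compared between KO and control libraries by edgeR's quasi-likelihood test, fitted on all 12158 genes that passed the filter on low counts, with a call at a Benjamini-Hochberg adjusted p below 0.05. Of the 26 tested members 8 fell and 6 rose in KO libraries, and 12 did not pass. That is 30.8% lower and 23.1% higher, beside 27.5% and 27.1% of all tested genes. In either direction 53.8% of the members were called, close to the 54.6% of all genes, so the families did not stand out by the number of calls. The calls differed between classes in their counts, and no test of direction against class was run. The class called ERK-acting joins the nuclear Dusp1, Dusp2, Dusp4 and Dusp5 with the cytoplasmic Dusp6, Dusp7 and Dusp9. Of these, Dusp1 also acts on p38 and JNK, and Dusp4 on JNK. Sprouty and Spred genes had 5 of 6 tested members lower and 0 higher, the ERK-acting phosphatases 3 of 7 lower and 1 higher, the JNK and p38 phosphatases 3 of 3 higher, and the atypical phosphatases 2 of 10 higher and 0 lower. The class median log2 fold changes (KO over control) were -0.33 for Spred, -0.65 for Sprouty, -0.18 for the ERK-acting, 0.27 for the JNK and p38, and 0.10 for the atypical phosphatases, beside -0.01 for all tested genes. These medians rest on few genes. The ERK-acting median of -0.18 is the value of Dusp2 itself, which had only 11 to 34 counts per library and was not called. It therefore says little about the class. With the filter at 5 CPM, which leaves out Dusp2, the ERK-acting median was -0.13. The median of the ERK-acting class was -0.02 without control replicate 1, -0.08 without KO replicate 3 and -0.11 without KO replicate 1. That of the atypical class was 0.16 without control replicate 1 and 0.05 without control replicate 2.

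**Figure D1:**
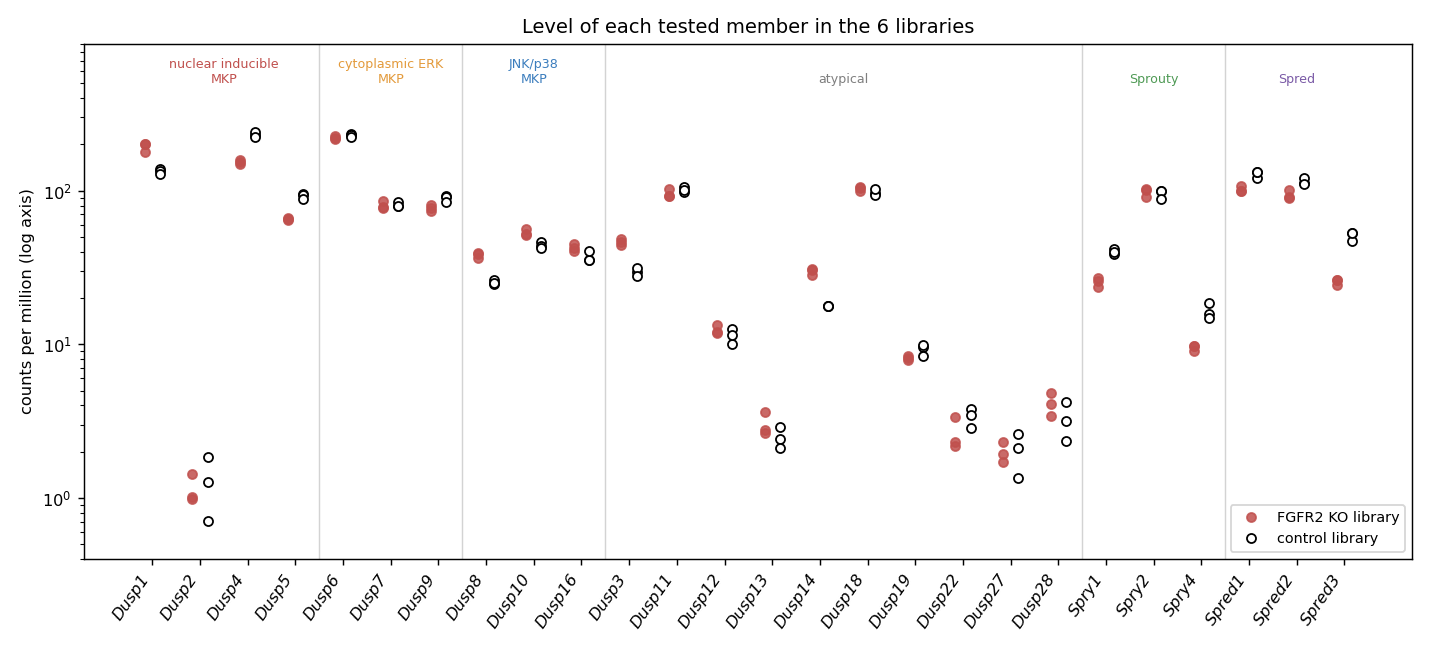
Level of the 26 tested members in CPM, on a log axis, with a filled point for each KO library and an open point for each control library, grouped by class. Dusp4, Spry1 and Spred3 lie lower and Dusp1, Dusp3 and Dusp14 higher in all 3 KO libraries, while the points of Dusp6 and Spry2 overlap.

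The nuclear, inducible phosphatases moved in opposite directions. Dusp4 (MKP2; chr8:34807297-34819894, plus strand, in the GENCODE M21 annotation of mm10, used for all gene positions) is a nuclear phosphatase of ERK and JNK that ERK signalling itself induces. It stood at 154, 149 and 159 CPM in KO replicates 1 to 3, against 229, 242 and 224 CPM in control replicates 1 to 3. No KO library reached the lowest control library. The log2 fold change was -0.59 (SE 0.040, edgeR adjusted p = 3.20e-15). Dusp5 (chr19:53529109-53542431, plus strand), a nuclear phosphatase selective for ERK, had 64.0, 65.8 and 65.9 CPM in KO libraries against 95.8, 93.1 and 88.5 CPM in control libraries. It fell by 0.50 on the log2 scale (SE 0.049, edgeR adjusted p = 3.37e-11), again without overlap of the groups. An annotated gene on the other strand overlaps 22.1% of the exonic sequence of Dusp5, and the strand setting of the counts is not given in the sources used here.

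Dusp1 (MKP1; chr17:26505590-26562128, minus strand), an immediate early gene whose product acts on p38 and JNK as well as on ERK, went the other way. It had 179, 203 and 201 CPM in KO libraries and 139, 134 and 128 CPM in control libraries. All 3 KO libraries lay above all control libraries, and the gene rose by 0.54 on the log2 scale (SE 0.045, edgeR adjusted p = 7.59e-13). Dusp2, the fourth nuclear member, best known from lymphocytes, was close to the detection limit, with 19, 28 and 20 counts in KO libraries against 34, 26 and 11 counts in control libraries. Its log2 fold change of -0.18 had a 95% interval of -0.89 to 0.52, which takes in falls as large as those of Dusp4 and Dusp5, so a change of that size was not detectable at this depth.

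Dusp1 belongs to the transcripts that respond within minutes to growth factors and also to tissue dissociation. Of 15 other tested genes in a list of that kind, 10 rose and 5 fell in KO libraries, beside 27.1% higher and 27.5% lower among all tested genes. The number that rose depended on the setting: it was 6 under upper quartile scaling, 6 without control replicate 3 and 7 by DESeq2. Of the genes that went the way of Dusp1, the stress-induced transcription factor Atf3 rose by 0.84 on the log2 scale. The heat shock gene Hspa1b rose by 0.48, the AP-1 subunit Fos by 0.27 and the scarce heat shock gene Hspb1 by 1.53. The others that rose did so by 0.09 (Klf6) to 0.20 (Klf4), and the median over the 15 tested genes was 0.12. The 5 that fell were Zfp36 (-0.59), whose product destabilizes transcripts, Ier2 (-0.51), a nuclear early response gene, the growth arrest gene Btg2 (-0.49) and the AP-1 subunits Jun (-0.31) and Junb (-0.14). The summed level of the 16 listed genes was 4847 to 5225 CPM in KO and 4870 to 5173 CPM in control libraries. Egr1, Egr3 and Ier3 were not in this list but among the 16 ERK-induced genes below, of which 12 fell and 3 rose. All 3 fell (log2 fold changes -1.31, -1.25 and -0.87), so the counts depend on how such genes were divided between the lists. The part of dissociation in the rise of Dusp1 was not tested.

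The cytoplasmic ERK phosphatases hardly differed. Dusp6 (MKP3; chr10:99263231-99267489, plus strand), the ERK-selective phosphatase most often used as a readout of FGF and ERK signalling, was at 228, 221 and 218 CPM in KO libraries and at 233, 229 and 223 CPM in control libraries. The groups overlapped. The log2 fold change was -0.04 with a 95% interval of -0.12 to 0.04, an interval that leaves out a fall as large as that of Dusp4 or Dusp5 (edgeR adjusted p = 0.396). Dusp7, its close relative, had 78.3, 85.4 and 77.0 CPM in KO against 79.6, 83.9 and 79.1 CPM in control libraries (log2 fold change -0.01, 95% interval -0.11 to 0.09). Dusp9, an X-linked phosphatase of the same set, best known from placenta and embryonic stem cells, had 73.4, 77.3 and 80.8 CPM in KO and 92.9, 90.4 and 84.1 CPM in control libraries. It fell by 0.21 on the log2 scale (SE 0.050, edgeR adjusted p = 5.55e-04), with a gap between the groups that was small beside the spread of the control libraries.

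All of the JNK and p38 phosphatases rose. Dusp8 (chr7:142079490-142095843, minus strand), a phosphatase of JNK and p38 studied in brain and heart, had 36.7, 39.1 and 38.6 CPM in KO libraries against 26.0, 24.7 and 25.1 CPM in control libraries, without overlap. Its rise was 0.59 on the log2 scale (SE 0.069, edgeR adjusted p = 2.76e-09). Dusp10 (MKP5), which acts on JNK and p38, had 51.7, 56.1 and 52.5 CPM in KO and 46.5, 43.9 and 42.3 CPM in control libraries, a rise of 0.27 (SE 0.059, edgeR adjusted p = 1.76e-04). Dusp16 (MKP7), which prefers JNK, had 42.4, 40.5 and 44.9 CPM in KO and 35.6, 35.6 and 40.2 CPM in control libraries. Its rise of 0.20 (SE 0.065, edgeR adjusted p = 0.0085) was the least secure of the called members: the lowest KO and the highest control library nearly met, and the call was lost without KO replicate 3 (edgeR adjusted p = 0.0554), without control replicate 1 (0.0534) and without control replicate 2 (0.0568).

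**Figure D2:**
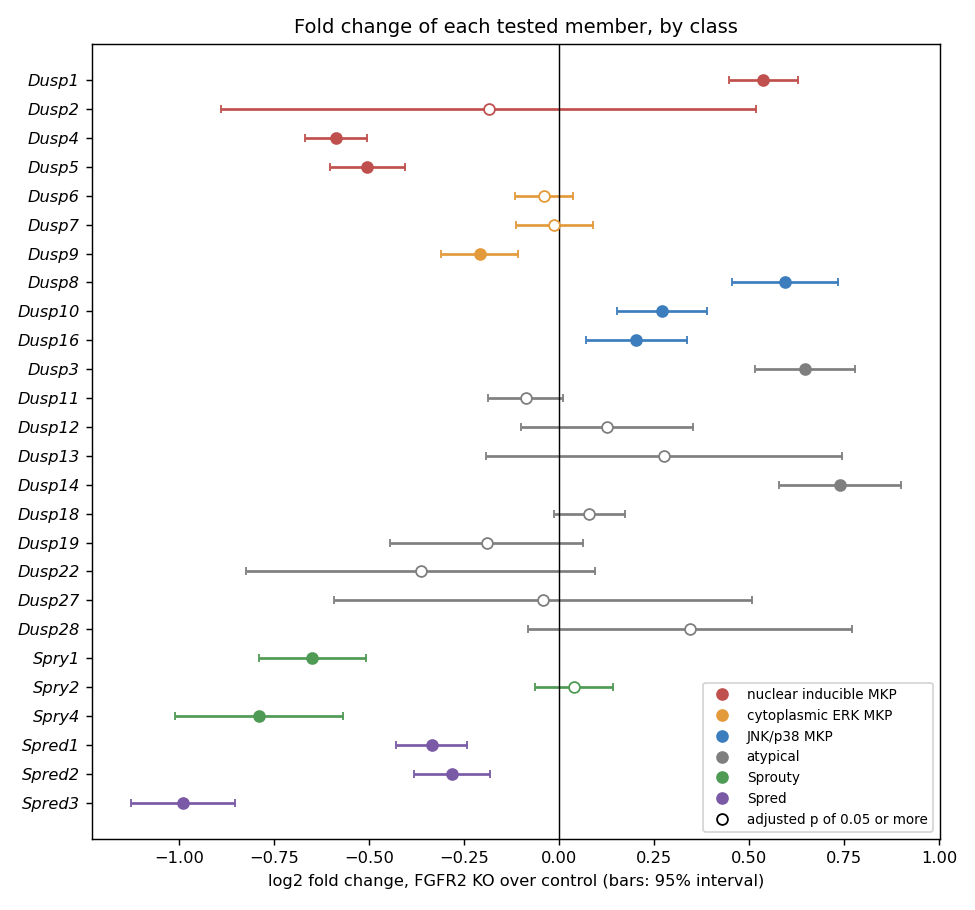
Log2 fold change (KO over control) of the 26 tested members with 95% intervals, coloured by class, with open points for members that did not pass the test. The 3 JNK and p38 phosphatases lie to the right of 0 and the 3 Spred genes to the left, and Spred3 has the largest fall at -0.99.

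Most atypical phosphatases did not pass the test, and the 2 that did were the most strongly raised members of all. Dusp14 (chr11:84048041-84069261, minus strand), a small phosphatase that also binds the TAK1 partner TAB1, had 28.1, 30.3 and 30.8 CPM in KO against 17.8, 17.9 and 17.7 CPM in control libraries and rose by 0.74 on the log2 scale (SE 0.079, edgeR adjusted p = 4.29e-10). Dusp3 (VHR; chr11:101971143-101987013, minus strand), which can act on ERK and JNK, had 48.2, 46.3 and 44.6 CPM in KO against 29.6, 31.2 and 27.7 CPM in control libraries and rose by 0.65 (SE 0.065, edgeR adjusted p = 1.10e-10). An antisense gene that overlaps 12.9% of the exonic sequence of Dusp3 had 0 counts in every library. Both genes were higher in all KO libraries than in any control library.

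The 8 atypical members that did not pass fall into abundant and scarce ones. Dusp18, found in mitochondria, and Dusp11, which acts on RNA 5' ends, averaged 103 and 95.5 CPM in KO against 97.4 and 102 CPM in control libraries, with log2 fold changes of 0.08 and -0.09. Dusp12 averaged 12.4 CPM in KO and 11.4 CPM in control libraries. A pair of antisense genes overlaps 49.8% of its exonic sequence. Dusp19, a scaffold-like regulator of the JNK cascade, was at 8.34, 8.12 and 7.95 CPM in KO and at 9.59, 8.41 and 9.93 CPM in control libraries. Its groups did not overlap, yet it did not pass (log2 fold change -0.19, edgeR adjusted p = 0.200). Dusp13, known from testis and muscle, Dusp22, a regulator of JNK signalling, Dusp27, a muscle protein without phosphatase activity, and Dusp28 averaged between 1.99 and 4.12 CPM in KO and between 2.03 and 3.37 CPM in control libraries, and the 95% intervals of their log2 fold changes lay within -0.82 to 0.77. Dusp11 passed the test only without KO replicate 1 (edgeR adjusted p = 0.0182) and Dusp28 only without control replicate 2 (0.0422).

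Of the Sprouty genes, the less abundant ones fell. Spry4, a feedback inhibitor induced by FGF signalling, had 9.73, 9.70 and 9.03 CPM in KO libraries against 18.5, 15.7 and 14.8 CPM in control libraries, and fell by 0.79 on the log2 scale (SE 0.109, edgeR adjusted p = 1.15e-07). Spry1 (chr3:37639947-37644598, plus strand), another feedback inhibitor, had 23.6, 25.8 and 27.1 CPM in KO against 41.5, 38.9 and 39.9 CPM in control libraries, and fell by 0.65 (SE 0.070, edgeR adjusted p = 4.94e-10). An annotated antisense gene overlaps 24.4% of the exonic sequence of Spry1. Neither gene's groups overlapped. Spry2, which binds the ubiquitin ligase Cbl and was the most abundant Sprouty gene per length, had 91.4, 102 and 102 CPM in KO and 99.7, 98.9 and 87.9 CPM in control libraries. Its log2 fold change of 0.04 had a 95% interval of -0.06 to 0.14 (edgeR adjusted p = 0.532).

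All Spred genes fell. Spred3 (chr7:29158829-29170411, minus strand) changed most among the tested members, with 26.4, 24.4 and 26.3 CPM in KO libraries against 53.1, 46.8 and 53.2 CPM in control libraries. This is a fall by 0.99 on the log2 scale (SE 0.068, edgeR adjusted p = 2.92e-15), to 0.504 of the control level, and Spred3 was the only member that also passed the test against a minimum fold change of 1.5, which 7.46% of all tested genes passed. The germ cell gene Ggn, which overlaps 3.25% of the Spred3 exons on the other strand, was lower as well, at 17, 25 and 18 counts in KO against 33, 46 and 39 counts in control libraries (edgeR adjusted p = 0.0026). Spred1, mutated in the human Legius syndrome and a partner of neurofibromin, had 99.1, 107 and 98.9 CPM in KO and 121, 132 and 131 CPM in control libraries, a fall by 0.33 (SE 0.046, edgeR adjusted p = 1.13e-07). Spred2 had 90.2, 90.9 and 101 CPM in KO and 112, 121 and 110 CPM in control libraries, a fall by 0.28 (SE 0.049, edgeR adjusted p = 7.40e-06). In each of the 3 genes every KO library lay below every control library.

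By size, 4 members had an estimated fall of at least 1.5-fold (Dusp4, Spry1, Spry4 and Spred3) and 3 an estimated rise of that size (Dusp8, Dusp3 and Dusp14), 15.4% and 11.5% of the 26, beside 9.70% and 6.09% of all tested genes. Dusp4 (1.502-fold) and Dusp8 (1.509-fold) stood at the cutoff. With a library left out, their log2 fold changes came as near to 0 as -0.554 and 0.575, under 1.5-fold, so these shares depend on borderline values. The KO and control groups did not overlap for 15 of the 26 members, 9 below and 6 above, or 57.7%, beside 59.5% of all tested genes (30.0% below and 29.5% above).

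The differences between members of a family were also expressed as ratios within each library, where differences in library size cancel. The 5 pairs were chosen with the fold changes known and the ratios restate those fold changes, so they are a description with no test. The log2 ratio of Dusp4 to Dusp6 counts was -0.53 ± 0.064 in KO and 0.02 ± 0.052 in control libraries (SD, n = 3 each), a difference of -0.55. The difference is that between the fold changes of the 2 genes. The ratio of Dusp5 to Dusp6 was -1.77 ± 0.058 in KO and -1.30 ± 0.024 in control libraries, a difference of -0.46, and that of Dusp1 to Dusp6 was -0.20 ± 0.13 in KO and -0.77 ± 0.024 in control libraries, a difference of 0.58. For Spry4 to Spry2 the ratio was -3.37 ± 0.13 in KO and -2.55 ± 0.11 in control libraries, a difference of -0.82, and for Spred3 to Spred2 it was -1.87 ± 0.089 in KO and -1.16 ± 0.18 in control libraries, a difference of -0.71. In none of the 5 pairs did the KO and control ratios overlap.

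**Figure D3:**
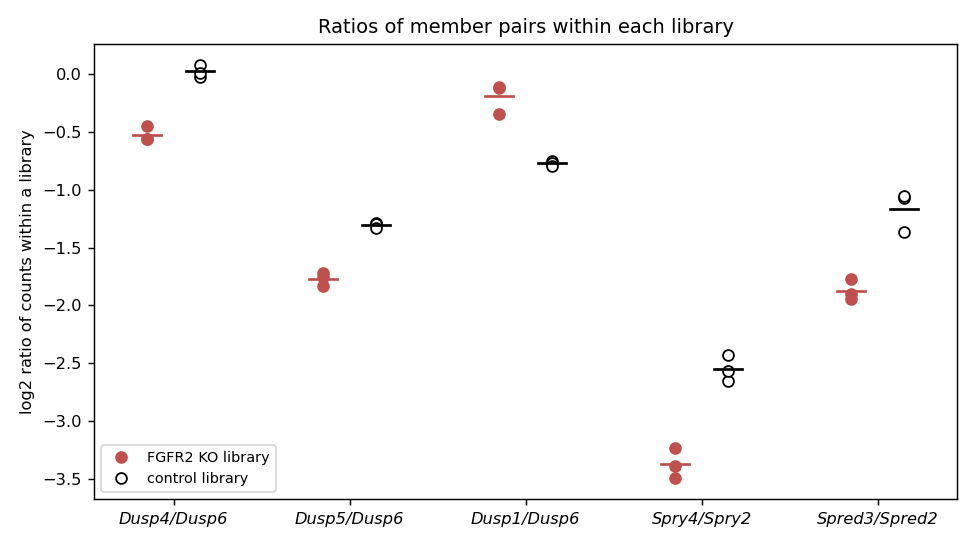
Log2 ratio of the counts of 2 members within each library, filled points for KO and open points for control libraries, with lines at the group means. The ratios of Dusp4 and Dusp5 to Dusp6, of Spry4 to Spry2 and of Spred3 to Spred2 lie lower in KO libraries, and that of Dusp1 to Dusp6 lies higher.

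Per kilobase of annotated exon, the order of the most abundant members differed between the groups. In KO libraries Dusp6 came first at 71.0 CPM per kb, followed by Dusp1 at 58.7, Dusp4 at 56.3 and Spry2 at 47.1 CPM per kb, with the ranges of Dusp1 (54.2 to 61.2) and Dusp4 (54.6 to 58.0) overlapping. In control libraries Dusp4 came first at 84.5 CPM per kb, followed by Dusp6 at 72.9, Spry2 at 45.8 and Dusp1 at 40.4 CPM per kb. Summed over the 10 MKPs, the level was 296 ± 5.19 CPM per kb in KO and 317 ± 9.47 CPM per kb in control libraries (SD, n = 3 each). The sum was lower in every KO library (290 to 299) than in any control library (306 to 323). Of that sum Dusp1 held 19.8% ± 0.977 in KO and 12.7% ± 0.217 in control libraries, and Dusp4 held 19.0% ± 0.678 in KO and 26.6% ± 0.709 in control libraries. Dusp5 held 8.91% ± 0.019 in KO and 11.8% ± 0.182 in control libraries, and Dusp6 24.0% ± 0.993 in KO and 23.0% ± 0.280 in control libraries. Dusp1 and Dusp4 had near equal parts in KO libraries, while Dusp4 held the larger part in control libraries. The Dusp1 length of 3311 bases joins the exons of 6 transcript models over a span of 56539 bases. Its rank and share per kb depend on that annotation. The 3 JNK and p38 phosphatases together summed to 30.0, 31.6 and 30.9 CPM per kb in KO libraries against 25.2, 24.1 and 24.2 CPM per kb in control libraries, a minor part of the MKP transcripts in both. The Spred genes summed to 38.4, 39.4 and 40.7 CPM per kb in KO against 50.6, 53.3 and 51.8 CPM per kb in control libraries, and the Sprouty genes, dominated by Spry2, overlapped, at 54.0, 59.6 and 60.0 CPM per kb in KO and 66.0, 64.1 and 58.9 CPM per kb in control libraries.

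**Figure D4:**
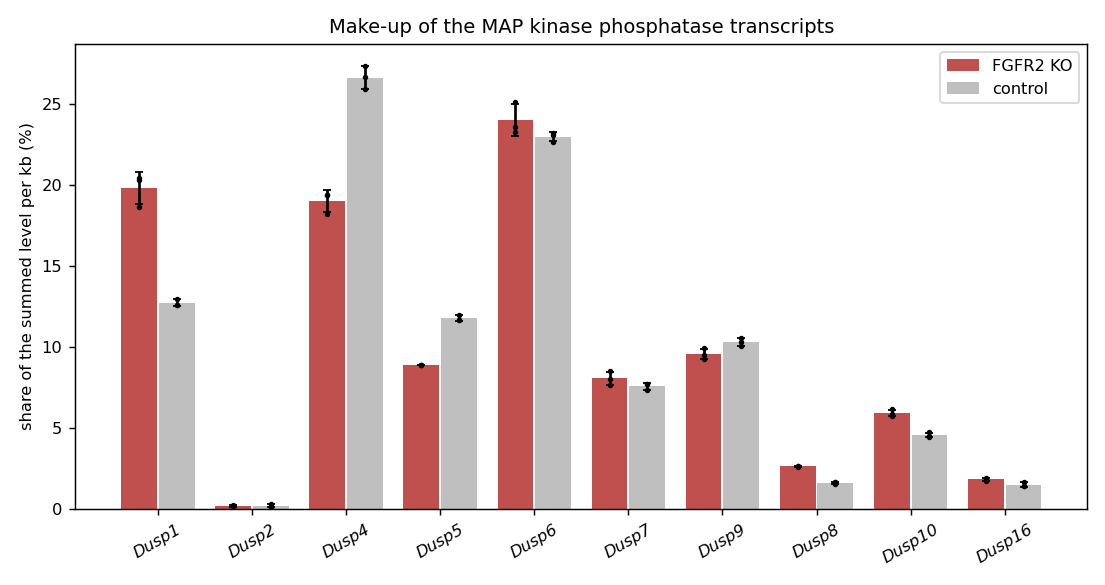
Share of each of the 10 MAP kinase phosphatases in their summed level per kilobase, as mean (bars), SD (error bars) and single libraries (dots), KO left of control. Dusp1 holds 19.8% in KO and 12.7% in control libraries, and Dusp4 19.0% in KO and 26.6% in control libraries.

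The start regions of members that moved in opposite directions were compared for short motifs bound by factors that ERK and stress kinases or cAMP act on. RefSeq promoters (GRCm38.p6, 250 bases before to 50 after the start) were matched for 23 of the 31 members, and Dusp4, Dusp9, Dusp15, Dusp19, Dusp21, Dusp26, Spry3 and Spry4 had no entry. The 250 bases upstream of the start are shown for the raised Dusp1 (chr17:26508473-26508722, minus strand) and Dusp8 (chr7:142095285-142095534, minus strand), where capitals mark the cAMP response element TGACGTCA, for the lowered Dusp5 (chr19:53528895-53529144, plus strand), where capitals mark a pair of adjoining CArG boxes, the site of serum response factor, and for Spred3 (chr7:29168648-29168897, minus strand), the member that fell most, in which none of the motifs searched occurred.
Dusp1: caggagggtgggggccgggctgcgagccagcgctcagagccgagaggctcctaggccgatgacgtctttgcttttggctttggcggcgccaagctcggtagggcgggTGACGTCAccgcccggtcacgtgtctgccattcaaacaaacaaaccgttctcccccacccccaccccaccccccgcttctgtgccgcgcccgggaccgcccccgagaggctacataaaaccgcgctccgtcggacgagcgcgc
Dusp8: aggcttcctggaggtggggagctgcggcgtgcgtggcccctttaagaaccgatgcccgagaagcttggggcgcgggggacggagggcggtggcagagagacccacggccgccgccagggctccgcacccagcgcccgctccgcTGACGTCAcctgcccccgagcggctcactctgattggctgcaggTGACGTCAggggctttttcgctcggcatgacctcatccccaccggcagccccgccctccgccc
Dusp5: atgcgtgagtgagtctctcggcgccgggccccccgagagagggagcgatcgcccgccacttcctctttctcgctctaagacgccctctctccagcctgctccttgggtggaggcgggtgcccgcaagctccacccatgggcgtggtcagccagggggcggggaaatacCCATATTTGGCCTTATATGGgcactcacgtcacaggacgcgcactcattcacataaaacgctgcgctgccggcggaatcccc
Spred3: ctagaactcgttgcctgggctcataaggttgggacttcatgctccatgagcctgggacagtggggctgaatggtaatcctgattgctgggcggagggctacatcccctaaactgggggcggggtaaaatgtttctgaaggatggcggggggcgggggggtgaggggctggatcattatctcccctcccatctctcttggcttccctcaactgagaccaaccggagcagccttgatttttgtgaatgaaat

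The motif TGACGTCA occurred 143 bases upstream of the start in Dusp1 and 107 and 63 bases upstream in Dusp8, and in no other member's window, on a search of both strands over all 300 bases. It occurs in 1.79% of all 32851 RefSeq promoter windows. Of the members with a window, 2 of 6 raised and 0 of 5 lowered ones held it, and the lowered Dusp4, Dusp9 and Spry4 could not be searched. Near matches, such as tcacgtca in Dusp5 and tgacgtct in Dusp1, were not counted. The CArG boxes of Dusp5 began 82 and 72 bases upstream, and no other member's window held one, beside 1.63% of all windows. An ETS motif, CCGGAAG, was found only in Dusp27 (8.86% of all windows), and an AP-1 motif, TGANTCA, only in 1 of the start sites of Dusp13 (7.81% of all windows). The motifs found did not overlap one another. The windows of Dusp6, Spry1, Spry2, Spred1 and Spred2 held none of these letters, which says nothing about sites elsewhere. Only the stated letters were searched, so shorter or variant sites of the same factors were not counted in any window, the printed ones included. A match is a description of the sequence, not evidence of binding.

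Other genes around the members were read from lists of the pathway, whose counts stand beside 27.1% higher and 27.5% lower among all tested genes. The lists were chosen with earlier results of these data known, so their counts are a description with no test. Of 16 other genes known to be induced by ERK, 12 fell and 3 rose, with a median log2 fold change of -0.53. Among those with the smallest adjusted p, the transcription factor Egr1 was at 223 ± 14.5 CPM in KO and 554 ± 16.5 CPM in control libraries, Ier3, a stress-inducible survival gene, at 393 ± 5.29 and 719 ± 7.48 CPM, the cytokine Lif at 141 ± 6.15 and 274 ± 5.96 CPM, and the chromatin protein Hmga2 at 338 ± 7.75 and 561 ± 9.53 CPM (SD, n = 3 each). The 3 that rose were the Eph receptors Epha4 (log2 fold change 1.48) and Epha2 (0.10) and the AP-1 subunit Fosl1 (0.30). Of the ERK-acting phosphatases, Sprouty and Spred genes, Dusp4, Dusp5, Dusp9, Spry1, Spry4 and the Spreds fell, as most of this list did. Dusp1 rose, and Dusp2, Dusp6, Dusp7 and Spry2 did not pass. The list leaves out Fos, Fosb and Nr4a1, which rose (log2 fold changes 0.27, 0.16 and 0.13). They were counted with the early genes above, of which 10 rose and 5 fell.

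The ERK cascade itself showed no common direction: of 23 tested genes 4 rose and 9 fell, with a median of -0.01. The scaffold Ksr1 was at 31.9 ± 0.518 CPM in KO and 62.1 ± 3.32 CPM in control libraries (log2 fold change -0.96), the ERK kinase gene Map2k1 at 91.1 ± 1.08 and 119 ± 0.873 CPM (-0.39) and Mapk3, which encodes ERK1, at 80.6 ± 4.53 and 108 ± 6.80 CPM (-0.43). Among the genes that rose were Ptpn11 (0.33), which encodes the phosphatase SHP2, Hras (0.49) and the atypical MAP kinase gene Mapk6 (0.23).

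Of 18 tested genes of the JNK and p38 cascade, whose phosphatases rose, 3 rose and 5 fell, with a median of -0.03. The p38 activator Map2k3 was at 193 ± 5.70 CPM in KO and 144 ± 1.98 CPM in control libraries (log2 fold change 0.42) and the p38 alpha gene Mapk14 at 83.0 ± 3.00 and 66.6 ± 0.390 CPM (0.32), and the p38 target kinase Mapkapk2 rose by 0.12. The p38 delta gene Mapk13 (-0.41) and the kinase gene Map3k5 (-0.38), which encodes ASK1, fell. So did Mapkapk3 (-0.35), Mapk12 (-0.24) and Mapk8ip3 (-0.16). The JNK genes Mapk8 and Mapk9 had log2 fold changes of 0.03 and 0.02 and did not pass.

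Of 20 other brakes on receptor and RAS signalling, 5 rose and 6 fell with a median of 0.02, shares near those of all tested genes, and 3 rose when KO replicate 2 was left out. The EGF receptor inhibitor Errfi1 was at 254 ± 4.66 CPM in KO and 466 ± 8.45 CPM in control libraries, a fall by 0.87, the receptor antagonist Lrig1 fell by 0.44, and the RAS-inactivating proteins Rasa3 and Rasa2 fell by 0.39 and 0.33. The ones that rose were Cblb (0.27), Cbl (0.23), Socs3 (0.22), Ptpn2 (0.18) and Pebp1 (0.09). Of 14 binding partners and regulators of Sprouty and Spred proteins 2 rose and 3 fell (median 0.02). Cortactin (Cttn), an actin-binding protein, fell by 0.50, Siah2, a ubiquitin ligase, by 0.32 and the caveolin Cav2 by 0.20, while Cbl and the prohibitin gene Phb rose by 0.23 and 0.20. Neurofibromin (Nf1), through which Spreds act, was at 52.4 ± 2.85 CPM in KO and 50.3 ± 3.39 CPM in control libraries and did not pass.

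Of 17 tested cysteine phosphatases of the dual specificity type outside the Dusp names 6 fell and 1 rose, with a median of -0.12. The cell cycle phosphatase gene Cdc14a fell by 0.45, the slingshot phosphatases Ssh1 and Ssh2, which act on cofilin, by 0.18 and 0.16, Ptp4a3 by 0.33 and Ptp4a2 by 0.12, whereas Ptp4a1 rose by 0.20. Epm2a, which encodes the glycogen phosphatase laforin, was lower too, at a mean of 0.828 CPM in KO libraries against 2.17 CPM in control libraries. The tyrosine phosphatases that act on MAP kinases, Ptpn5, Ptpn7 and Ptprr, were too low to be tested, at a summed 0.204 to 0.374 CPM in KO and 0.436 to 0.935 CPM in control libraries.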

How the data were processed

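RNA was measured in 6 libraries of the 4T1 line, 3 labelled FGFR2 KO and 3 controls. The authors deposited raw read counts, 1 whole number for each gene and library. FastQC 0.11.9, STAR 2.7.9a, featureCounts and R 4.1.1 are listed in the submitters' processing notes, which name the builds hg38 and mm10 without a role. The annotation release, strand setting and handling of reads over several genes were not given in the sources used here, so overlapping genes are uncertain. Columns were matched to libraries by name. Of the symbols, 98.4% occur in GENCODE M21 (mm10), from which exonic lengths and overlaps were taken. Its lengths may differ from those counted.

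Counts were filtered with filterByExpr (minimum count 10, minimum total 15), scaled by TMM and tested with edgeR 4.0.16 (R 4.3.3), with group as the only term and Benjamini-Hochberg adjustment over all tested genes. Log2 fold changes are KO over control. CPM are relative to TMM-scaled totals, and SE is the fold change over the square root of F. Pair ratios used counts plus 0.5; their two-sided exact permutation test, which gave its smallest possible p = 0.1 for each pair, is not used, since the pairs were chosen with the fold changes known. Alternatives were DESeq2 1.42.0, limma-voom (limma 3.58.1), other scalings and filters, a minimum fold change of 1.5, the replicate number as a block, and each library left out. Fits were tested on simulated data. Replicate pairs differed by more than counting noise (chi-square per degree of freedom at least 2.28).

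The members, lists and pairs were chosen with earlier results of these data known. Every member is named. Genes of the pathway lists were named by the smallest adjusted p in a list and by calls against its majority, and other list genes named, those of the marker and dissociation lists included, were chosen after their values were seen. Ptpmt1, of the phosphatase list, had no match. Some genes of the ERK cascade list are counted but not reported here by name.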

Additional observations from a re-analysis of the deposited data

How the results depend on the processing

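All 14 called members kept direction and call under DESeq2, limma-voom, RLE and upper quartile scaling, no filter and the filter at 5 CPM. Equal replicate numbers did not deviate together (correlations -0.064 to -0.0032). That cannot show whether equal numbers shared a culture or day, which the labels do not say. With the replicate block 8 members were called lower and 6 higher, as without it. Against a minimum fold change of 1.5, 1 member was called lower (Spred3, so Spred had 1) and 0 higher, with 0 calls in the ERK-acting, JNK and p38, atypical and Sprouty classes in either direction, and 907 genes were called in all, against 6639 without that minimum. Leaving out 1 library at a time kept 13 of the 14 in every case. Dusp16 was lost without KO replicate 3, control replicate 1 or control replicate 2, which left the JNK and p38 class at 2 to 3 calls. The atypical class had 0 to 1 lower calls, the 1 being Dusp11 without KO replicate 1. Fgfr2 ranged from -0.17 (edgeR adjusted p = 0.0081, without KO replicate 1) to -0.017. Members that were not called changed sign: Dusp2 ranged from -0.44 to 0.16 on the log2 scale, Dusp7 from -0.058 to 0.018, Dusp27 from -0.24 to 0.17 and Spry2 from -0.014 to 0.089. Of the pathway lists, the count of dissociation genes called higher (10) was 6 under upper quartile scaling and without control replicate 3, and that of other brakes called higher (5) was 3 without KO replicate 2. The differences of the 5 pair ratios kept their sign with a pseudocount of 1 and with each library left out in turn. Depth limits Dusp2, Dusp13, Dusp22, Dusp27 and Dusp28, at under 5 CPM each.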
